A study of Medicago truncatula with 6 samples.

Results

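Root hairs of Medicago truncatula answer Nod factors (NF), the lipochitooligosaccharide signals of rhizobia, over hours, and some of the genes that respond stand at nearly the same level early and late. The set described here holds 78 of the 50897 genes of the count tables. It was chosen on the measured values themselves. Each of the 4 NF libraries had to be at 1 CPM or more (counts scaled to the same library total) and at 3 times the control or more, and the mean of NF 20 h divided by the mean of NF 4 h had to lie between 0.67 and 1.5. Genes of the study's ion transport and redox tables and 10 other genes, 647 in all, were left out, among them 9 that met these conditions. The difference from the control and the likeness of the 2 times are therefore how the genes were found and not results, so no test of them is given. The values below describe the genes in each library.

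The libraries were made from root hairs of Jemalong A17 seedlings. Both NF groups (NF 4 h, NF 20 h) received a synthetic Nod factor solution on the root hair zone 4 h or 20 h before the hairs were collected, and the control group received sterile water. All groups shared the growth medium and the isolation of the hairs by vortexing frozen root segments without their tip, each library pooled many plants, and the replicates were independent repeats of the experiment. Replicates 1 and 2 of NF 4 h, replicates 1 and 2 of NF 20 h and replicate 2 of the control were used, and control replicate 1 is not analysed here. The control therefore has 1 library and no spread of its own, and what is peculiar to it and what NF changed cannot be told apart. Its label carries 4 h, so the NF 20 h group may differ from it in duration too.

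In legumes, NF are perceived at the root hair surface by LysM receptor kinases. A signaling pathway that runs through calcium oscillations in the nucleus then switches on transcription factors, and these prepare the hair for infection and the cortex for nodule formation. Hormones set the limits of this program, since cytokinin promotes nodule formation whereas ethylene and gibberellins can restrain it, and proteins of immunity are recruited or held back as the partner is admitted.

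The NF libraries held between 39199411 and 47302574 counted pairs and the control 45591207, and a count of 3 stood for 0.0634 to 0.0765 CPM. Of 10 genes fixed as root hair markers, orthologs of Arabidopsis root hair genes, 9 were at 1 CPM or more in each library, and the tenth, Medtr5g047050, was at or near 0 in all of them. The summed marker level was 1502 and 1820 CPM at NF 4 h, 1768 and 2023 CPM at NF 20 h and 1456 CPM in the control. In such bulk samples, fewer cells of a type and less RNA per cell cannot be told apart. Intervals given with ratios cover counting error only.

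The 78 genes spanned a wide range of levels. Their means ran from 1.09 to 359.5 CPM at NF 4 h (median 11.9) and from 1.103 to 358.5 CPM at NF 20 h (median 12.3), against a median of 1.72 CPM and a highest value of 71.2 CPM in the control. The median ratio to the control was 6.02 at NF 4 h and 6.68 at NF 20 h. In the control, 35 of the genes were below 1 CPM, 29 lay between 1 and 10 CPM and 14 were above 10 CPM. For 40 genes the lowest NF library was less than 5 times the control, for 21 it was 5 to 10 times and for 17 at least 10 times. In the control, 8 genes had 3 counts or fewer, and only 1 of the 78, MtNF-YA1, had none, so its entry in these ratios is a lower bound.

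**Figure D1:**
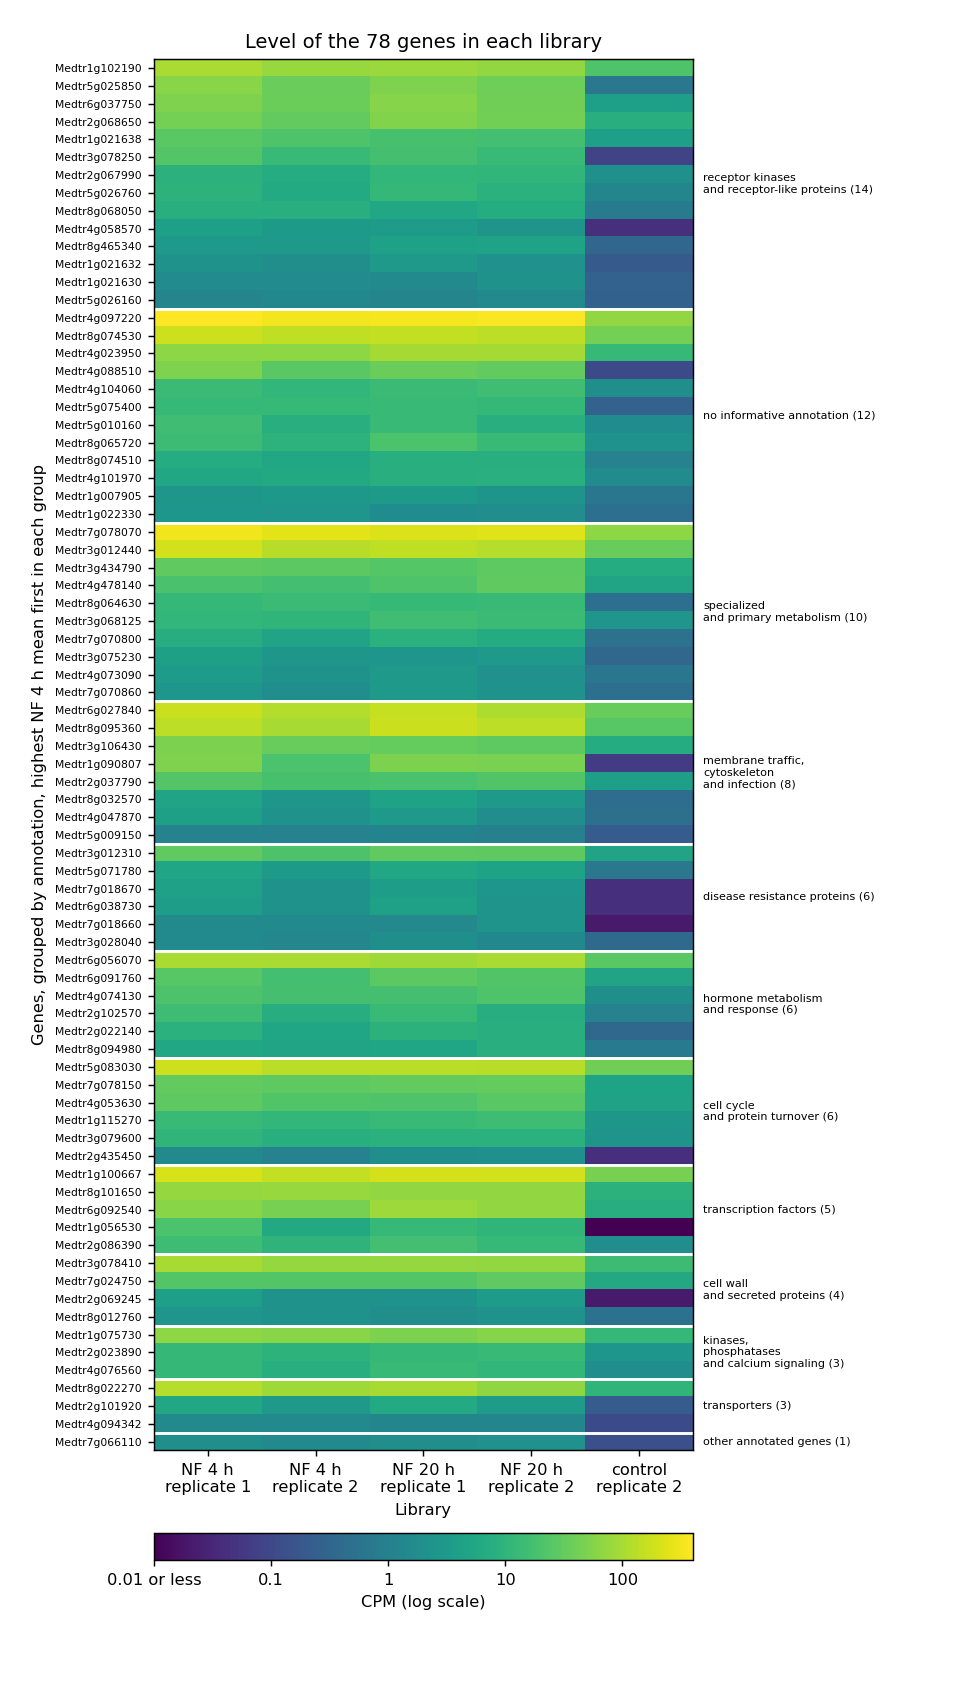
CPM of each of the 78 genes (rows, grouped by annotation) in each library (columns, NF on the left and control on the right), on a log color scale from 0.01 or less to above 100. The 4 NF columns are lighter than the control column, as the choice of the genes required, and the control column is darkest where the control held few counts. In some rows the NF columns also differ, as at NF 4 h for MtNF-YA1 (19.4 and 6.17 CPM) and Medtr1g090807 (50.3 and 19.6 CPM).

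Several genes with an established place in rhizobial symbiosis were in the set. MtNF-YA1 (Medtr1g056530) encodes a subunit of a CCAAT-binding complex needed for infection threads and for the nodule meristem. Its level was 19.4 and 6.17 CPM in the NF 4 h libraries, 11.99 and 10.02 CPM in the NF 20 h libraries and 0 CPM in the control. The control held 0 counts of this gene, and against the floor of 3 counts per library the NF means were at least 195-fold (4 h) and at least 167-fold (20 h) higher. The replicates of NF 4 h lay far apart for this gene, replicate 2 at 0.317 times replicate 1, and both NF 20 h libraries lay between them.

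MtVAPYRIN (Medtr6g027840), an ankyrin repeat protein that rhizobia and arbuscular mycorrhizal fungi both need to enter the root, was already well expressed in the control. It stood at 172 and 118 CPM at NF 4 h, 156 and 109.9 CPM at NF 20 h and 34.3 CPM in the control. These levels were 4.23 times the control at NF 4 h and 3.88 times at NF 20 h, and the libraries of the 2 times overlapped. MtPUB1 (Medtr5g083030) encodes a U-box ubiquitin ligase that binds a Nod factor receptor kinase and restrains infection. It averaged 157 ± 31.2 CPM at NF 4 h and 129 ± 2.57 CPM at NF 20 h (SD, n = 2 each) against 40.6 CPM in the control. Both NF 20 h libraries of MtPUB1 (131 and 127 CPM) lay below both NF 4 h libraries (179 and 135 CPM).

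**Figure D2:**
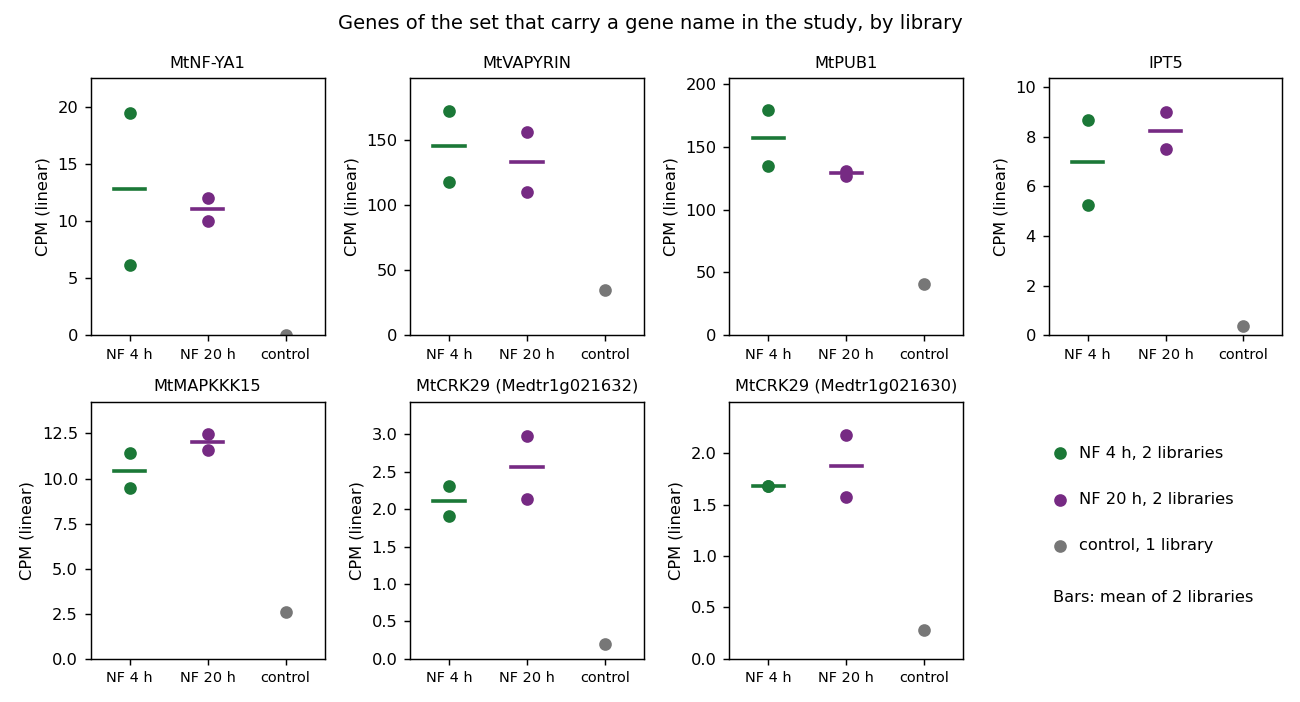
CPM on a linear axis of the 7 genes of the set that carry a gene name in the study, in NF 4 h (2 libraries), NF 20 h (2 libraries) and control (1 library), with bars at the means of the NF groups. Each NF point lies above the control point, which is at 0 for MtNF-YA1, and the NF 4 h points of MtNF-YA1 differ most as a ratio, replicate 2 being at 0.317 times replicate 1.

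The other 4 transcription factors were a gene for an ABA response element-binding factor and MYB genes. The myb gene Medtr1g100667, an ortholog of an Arabidopsis root hair gene, had the highest level of the group with 210.4 and 149 CPM at NF 4 h, 198 and 196 CPM at NF 20 h and 44.9 CPM in the control. Medtr8g101650, which the study lists as specific to legumes, gave 75.7 and 78.5 CPM (NF 4 h), 70.2 and 72.6 CPM (NF 20 h) and 9.06 CPM (control), so all NF libraries lay within a narrow band. The MYB-like gene Medtr6g092540 was the gene closest to the upper limit of the set. Both of its NF 20 h libraries (85.3 and 71.8 CPM) were above both NF 4 h libraries (60.7 and 44.5 CPM), with 7.39 CPM in the control. The ABA response element-binding factor Medtr2g086390, of a family that acts downstream of abscisic acid, averaged 12.4 ± 3.35 CPM at NF 4 h and 14.5 ± 3.06 CPM at NF 20 h (SD, n = 2 each) against 1.78 CPM in the control.

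The 6 genes of hormone metabolism and response came from the pathways of cytokinin, gibberellin, ethylene, salicylic acid and auxin. IPT5 (Medtr2g022140) encodes an isopentenyltransferase, the enzyme that opens cytokinin synthesis, and its level was 8.696 and 5.26 CPM in the NF 4 h libraries, 8.98 and 7.53 CPM in the NF 20 h libraries and 0.351 CPM in the control, or 19.9 and 23.5 times the control at NF 4 h and NF 20 h. A pair of gibberellin 2-beta-dioxygenases, which inactivate gibberellins, differed in how well the replicates matched. Medtr4g074130 was at 20.8 and 17.9 CPM at NF 4 h, 17.6 and 21.6 CPM at NF 20 h and 1.97 CPM in the control. For Medtr2g102570, replicate 2 was at 0.495 times replicate 1 at 4 h and at 0.577 times at 20 h, with 14.99 and 7.42 CPM (NF 4 h), 12.6 and 7.27 CPM (NF 20 h) and 1.097 CPM (control). Their means, whose likeness at the 2 times the rule required, were 9.78 and 9.93 times the control at NF 4 h and NF 20 h for Medtr4g074130. For Medtr2g102570 they were 10.2 and 9.06 times the control.

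Medtr6g091760, for a 1-aminocyclopropane-1-carboxylate synthase that makes the precursor of ethylene, averaged 21.1 ± 5.64 CPM at NF 4 h and 24.7 ± 3.35 CPM at NF 20 h (SD, n = 2 each) against 4.804 CPM in the control. The salicylic acid carboxyl methyltransferase Medtr6g056070, an enzyme that turns salicylic acid into its volatile methyl ester, was the most highly counted gene of the group, at 105 and 105 CPM at NF 4 h, 87.5 and 104 CPM at NF 20 h and 26.6 CPM in the control. A SAUR gene, Medtr8g094980, of a family of small auxin-responsive proteins, was at 6.51 and 8.26 times the control at NF 4 h and NF 20 h. It lies outside the naming rule.

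Receptor kinases and receptor-like proteins made up the largest annotated group, with 14 genes, of which 8 were below 1 CPM in the control. The group was assigned by annotation words and also counts genes whose annotation names no receptor, such as a Pti1-like kinase. The Pti1-like kinase Medtr1g102190, related to a tomato kinase that acts with a resistance kinase, had 105 and 78.4 CPM at NF 4 h, 79.7 and 71.4 CPM at NF 20 h and 21.2 CPM in the control. The LRR receptor-like kinase Medtr5g025850 was far lower in the control relative to its NF levels, with 60.9 and 36.02 CPM (NF 4 h), 50.99 and 38.8 CPM (NF 20 h) and 0.67996 CPM (control), that is 71.3 and 65.99 times the control at NF 4 h and NF 20 h. A receptor-like protein, Medtr6g037750, had 50.5 and 37.2 CPM (NF 4 h), 57.9 and 40.5 CPM (NF 20 h) and 3.904 CPM (control). In all 3 of these genes replicate 1 was the higher one at both times. The largest ratio among the kinases was that of the LRR receptor-like kinase Medtr3g078250, at 23.1 and 13.3 CPM at NF 4 h, 17.6 and 12.5 CPM at NF 20 h and 0.0877 CPM in the control, where the control value rests on 4 counts. The ratios of Medtr3g078250 were 207 at NF 4 h and 172 at NF 20 h.

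A LysM-domain receptor-like kinase, Medtr4g058570, of the family that perceives chitin-like molecules, had 3.94 and 3.16 CPM (NF 4 h), 3.53 and 2.43 CPM (NF 20 h) and 0.0439 CPM (control). With 2 counts in the control, its ratio of pooled CPM was 81.5 at NF 4 h (95% exact interval 22.4 to 676) and 67.2 at NF 20 h (18.4 to 557). This gene lies outside the naming rule and was chosen after its values were seen. Medtr5g026160, an LRR receptor-like kinase, was among the lowest of the set, at 1.22 and 1.38 CPM at NF 4 h, 1.26 and 1.52 CPM at NF 20 h and 0.263 CPM in the control.

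In 6 places of the genome, genes of the set lay next to each other in identifier order, with at most 3 listed genes between them. On chromosome 1, 3 of the genes fell in a run of cysteine-rich receptor kinase genes, a family of receptor kinases with paired extracellular domains rich in cysteine. Both genes named MtCRK29 were low. Medtr1g021630 gave 1.68 and 1.68 CPM (NF 4 h), 1.57 and 2.18 CPM (NF 20 h) and 0.285 CPM (control), and Medtr1g021632 gave 2.31 and 1.91 CPM (NF 4 h), 2.98 and 2.14 CPM (NF 20 h) and 0.197 CPM (control). Medtr1g021638, annotated by a salt stress response/antifungal domain, was higher, at 26.5 and 21.3 CPM at NF 4 h, 18.5 and 16.7 CPM at NF 20 h and 3.88 CPM in the control. Of its neighbors in that run, Medtr1g021635 stayed outside the set because the control was already at 26.1 CPM against 71.4 and 74.6 CPM at NF 4 h and 57.7 and 53.1 CPM at NF 20 h. Medtr1g021642 showed no such excess, with 1.52 and 2.09 CPM (NF 4 h), 0.715 and 1.08 CPM (NF 20 h) and 2.13 CPM (control). The authors discarded pairs that could not be placed on 1 gene, so levels of such close copies are uncertain.

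On chromosome 2, the lectin kinase Medtr2g067990 (9.11 and 6.99 CPM (NF 4 h), 11.2 and 10.6 CPM (NF 20 h) and 2.04 CPM (control)) lay near the malectin/receptor-like kinase Medtr2g068650 (43.8 and 31.05 CPM (NF 4 h), 52.99 and 41.8 CPM (NF 20 h) and 8.05 CPM (control)). Medtr2g068030, a pathogenesis-related thaumatin family gene listed between them, was also above the control in each NF library, with 10.5 and 5.69 CPM (NF 4 h), 13.1 and 3.17 CPM (NF 20 h) and 1.91 CPM (control). In replicate 2 of both times it was above the control by less than the set required. Medtr2g067980, the gene just before them, was at 24.7 and 27.8 CPM at NF 4 h, 24.97 and 25.01 CPM at NF 20 h and 28.1 CPM in the control. On chromosome 7, the UDP-glucosyltransferase genes Medtr7g070800 and Medtr7g070860, of a family that attaches sugars to small molecules, were at 11.1 and 4.58 times the control at NF 4 h. Their ratios at NF 20 h were 14.1 and 5.32. The genes listed between them were at or near 0 in all libraries. On chromosome 8, a pair of DUF241 genes, a domain of unknown function, differed strongly in level. Medtr8g074530 had 176 and 142 CPM at NF 4 h, 151 and 136 CPM at NF 20 h and 44.1 CPM in the control and Medtr8g074510 had 6.99 and 5.74 CPM at NF 4 h, 7.86 and 7.72 CPM at NF 20 h and 1.097 CPM in the control.

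**Figure D3:**
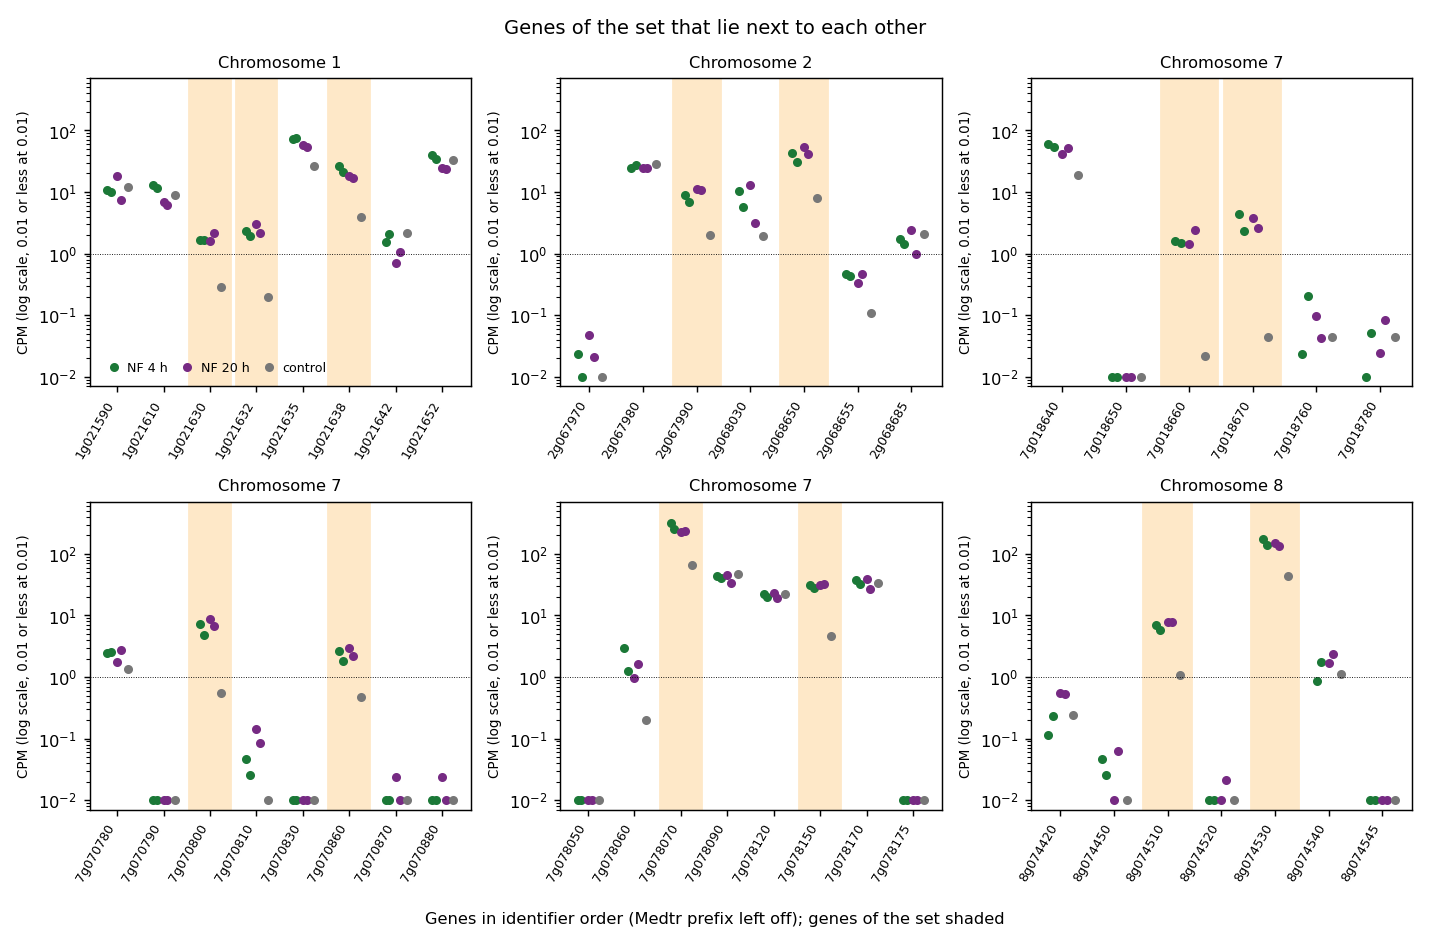
CPM (log axis, values of 0.01 or less drawn at 0.01) of genes in identifier order around the 6 places where genes of the set neighbor each other, which are shaded, with a point for each library (NF 4 h, NF 20 h, then control). The control point lies below the NF points in each shaded gene, and of the 11 unshaded genes at 1 CPM or more in each NF library it lies below all NF points in 4, among them in 5 and above them in 2.

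Disease resistance proteins were represented by 6 genes, 5 of them below 1 CPM in the control. For 4 of them the annotation names the NBS or NB-ARC domain of the NB-LRR class, whose members sense pathogen effectors inside the cell. The highest was Medtr3g012310 with 30.1 and 20.4 CPM at NF 4 h, 30.6 and 29.4 CPM at NF 20 h and 4.83 CPM in the control. Medtr7g018660 and Medtr7g018670, next to each other on chromosome 7, were almost without counts in the control. Medtr7g018640, a better counted NB-ARC gene shortly before them, lies outside the set. It was also above the control in each NF library, with 59.2 and 53.7 CPM (NF 4 h), 41.2 and 52.6 CPM (NF 20 h) and 18.8 CPM (control). The other genes listed around the pair were at or near 0 in all libraries. Medtr7g018670 gave 4.31 and 2.35 CPM (NF 4 h), 3.79 and 2.62 CPM (NF 20 h) and 0.0439 CPM (control), with a ratio of pooled CPM of 77.04 at NF 4 h (95% exact interval 21.1 to 639) and 72.3 at NF 20 h (19.8 to 599.6). For Medtr7g018660, with 1 count in the control, the ratio was 70.7 at NF 4 h (95% exact interval 12.5 to 2814) and 88.9 at NF 20 h (15.7 to 3529.8). Medtr6g038730, annotated as an LRR protein of a disease resistance family, likewise had 2 counts in the control and 3.78 and 2.35 CPM at NF 4 h and 4.31 and 2.41 CPM at NF 20 h. In this group replicate 1 was the higher one at 4 h in all 6 genes. The other 3 genes of the group, Medtr3g012310 among them, held 18 to 220 counts in the control, and their ratios were far smaller, at 3.58 to 6.302 times the control at NF 4 h and 4.298 to 7.75 times at NF 20 h.

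To see how the families behind these genes behaved, calls were counted among annotated genes of lists that were not drawn up on the NF response. Some of these lists hold genes of the set, which were chosen by their level against the same control. Over all 22091 genes tested (quasi-likelihood test of edgeR, Benjamini-Hochberg adjusted p under 0.05), 0.684% were called at NF 4 h and 1.47% at NF 20 h. Upwards calls were 0.525% and 1.1% of the genes tested, and downwards calls 0.158% and 0.371%. An unadjusted p under 0.05 was found for 9.28% of these genes at NF 4 h and 11.8% at NF 20 h. DESeq2 called 2.66% and 4.31% of the genes it tested, and the exact test of edgeR 3.91% and 5.98%. Of 48 NB-LRR genes tested in these lists, 0 were called at either time (7 at NF 4 h and 6 at NF 20 h had an unadjusted p under 0.05). DESeq2 called 0 and 1 of them, the exact test 0 and 1. The median log2 fold change of these NB-LRR genes was 0.08 at NF 4 h and -0.00156 at NF 20 h, beside -0.03 and -0.000153 for all genes tested.

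Of 16 LRR receptor kinases tested, 1 was called at each time, downwards, and it was the same gene, Medtr4g065850. An unadjusted p under 0.05 was found for 1 of the 16 at NF 4 h and 3 at NF 20 h. DESeq2 called 1 and 2 of them, and the exact test 1 and 3. Of 5 cysteine-rich receptor kinases tested, 1, MtCRK29 (Medtr1g021632), is itself of the set, so its call upwards at NF 20 h is not read as a result. None of the others was called at either time by the quasi-likelihood test. Among these others, only Medtr1g021642 had an unadjusted p under 0.05, at NF 20 h, with a log2 fold change of -1.24. DESeq2 and the exact test each called 1 of the 5 at each time, counts that include the gene of the set. Of 16 UDP-glycosyltransferases, 0 were called at either time (4 at NF 4 h and 2 at NF 20 h with an unadjusted p under 0.05, 0 and 0 by DESeq2, 0 and 1 by the exact test). Of 7 protein phosphatases 2C, 0 were called at either time (1 and 2 with an unadjusted p under 0.05, 1 and 1 by DESeq2, 1 and 1 by the exact test). The 1 gibberellin 2-oxidase tested, Medtr1g086550, was called upwards at both times, and it is one of the genes left out of the set by name. It met the conditions of the rule against this same control, so its calls are not read as a result. The lists held 7 more families with 1 to 6 tested genes each. These were lectin receptor kinases (6), ethylene response factors (6), SAUR proteins (5), serine carboxypeptidase-like proteins (2), a LysM receptor kinase, a flotillin and a type A response regulator. None of these 22 genes was called at either time by the quasi-likelihood test (2 at NF 4 h and 3 at NF 20 h with an unadjusted p under 0.05, 0 and 1 by DESeq2, 0 and 1 by the exact test). The other 4 families looked for, NF-YA subunits, isopentenyltransferases, 1-aminocyclopropane-1-carboxylate synthases and abscisic acid 8-hydroxylases, had no gene in the lists, which cover each family only in part.

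Among 1198 tested orthologs of Arabidopsis root hair genes, 5 were called upwards and 2 downwards at NF 4 h, and 12 upwards and 8 downwards at NF 20 h. The set holds 4 genes of that list, Medtr1g100667, the patellin gene Medtr8g095360, Medtr1g021632 and the PAR1 protein gene Medtr7g066110. Among 1134 tested genes listed as specific to legumes and expressed in root hairs, 6 were called upwards and 4 downwards at NF 4 h, and 15 upwards and 11 downwards at NF 20 h, and 6 of the listed genes are in the set. Their shares called (0.584% and 1.67% of the orthologs, 0.882% and 2.29% of the legume list at NF 4 h and NF 20 h) stand beside 0.684% and 1.47% of all genes tested, and the difference was not tested. Both lists, and all genes tested, include genes of the set, which were chosen against this same control. How many of the calls are theirs was not counted, so the shares are not independent of the choice.

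Genes annotated with membrane traffic, the cytoskeleton or infection numbered 8, MtVAPYRIN included. The patellin-3 gene Medtr8g095360, for a lipid-binding protein of a family that Arabidopsis uses in cell plate formation, had 141 and 99.3 CPM at NF 4 h, 168 and 138 CPM at NF 20 h and 25.3 CPM in the control. Medtr3g106430 carries the SPFH/band 7 domain, found in the flotillins that organize membrane microdomains, and was near the lower limit of the set. Both of its NF 20 h libraries (32.3 and 28.5 CPM) were below both NF 4 h libraries (48.5 and 33.5 CPM), with 7.04 CPM in the control. At the other end of the scale of ratios stood the myosin heavy chain-like gene Medtr1g090807, at 50.3 and 19.6 CPM at NF 4 h, 50.02 and 46.5 CPM at NF 20 h and 0.0658 CPM in the control. With 3 counts in the control, its ratio of pooled CPM was 543 at NF 4 h (95% exact interval 186 to 2637) and 732 at NF 20 h (250.1 to 3549), the highest at both times among the 77 genes with a count in the control. NF 4 h replicate 2 of this gene was at 0.3903 times replicate 1, while the NF 20 h libraries were close to each other. The dynamin-like gene Medtr5g009150, of a family that pinches membranes, was the lowest of the set in the NF 4 h libraries by its mean (1.09 ± 0.00905 CPM at NF 4 h and 1.103 ± 0.125 CPM at NF 20 h (SD, n = 2 each)).

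In protein turnover and the cell cycle, a pair of genes are annotated as the RING-H2 subunit 11 of the anaphase-promoting complex. That complex is the ubiquitin ligase that drives exit from mitosis and, in nodules, the switch to endoreduplication. The study lists Medtr7g078150 as specific to legumes, and whether either gene encodes this subunit was not tested. Medtr7g078150 had 31.5 and 28.4 CPM at NF 4 h, 31.1 and 32.7 CPM at NF 20 h and 4.65 CPM in the control, and Medtr1g115270 had 12.9 and 11.1 CPM at NF 4 h, 12.6 and 15.1 CPM at NF 20 h and 2.72 CPM in the control. The 4 NF libraries of both genes lay close together, and their means were 6.44 and 6.86 times the control at NF 4 h and NF 20 h for Medtr7g078150 and 4.42 and 5.09 times for Medtr1g115270. The subtilisin-like serine protease Medtr4g053630 averaged 25.4 ± 4.203 CPM at NF 4 h and 23.8 ± 3.65 CPM at NF 20 h (SD, n = 2 each) against 4.54 CPM in the control. The DnaJ gene Medtr2g435450, for a co-chaperone domain, had 2 counts in the control and a ratio of 31.2 at NF 4 h (95% exact interval 8.44 to 261) and 45.5 at NF 20 h (12.4 to 378).

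Of the 4 genes for cell wall and secreted proteins, the alpha-N-acetylglucosaminidase gene Medtr3g078410, for an enzyme that removes N-acetylglucosamine from the ends of glycans, was the highest with 97.7 and 74.6 CPM at NF 4 h, 74.7 and 71.6 CPM at NF 20 h and 14.1 CPM in the control. A CASP-like gene, Medtr7g024750, related to membrane proteins of the Casparian strip, had 22.9 and 23.3 CPM (NF 4 h), 23.6 and 29.6 CPM (NF 20 h) and 5.99 CPM (control). The gene for a nodule-specific glycine-rich peptide, Medtr2g069245, held 1 count in the control. It reached 3.88 and 2.19 CPM at NF 4 h and 2.29 and 3.36 CPM at NF 20 h, a ratio of 140.3 at NF 4 h (95% exact interval 24.95 to 5562) and 130.2 at NF 20 h (23.2 to 5164). The replicates of this gene differed in opposite directions at the 2 times. The defensin-related gene Medtr8g012760, of a class of small antimicrobial peptides, was lower and averaged 2.38 ± 0.122 CPM at NF 4 h and 2.07 ± 0.3002 CPM at NF 20 h (SD, n = 2 each) against 0.526 CPM in the control.

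The 10 genes of metabolism included some of the most abundant transcripts. Medtr7g078070 encodes a cysteine synthase/L-3-cyanoalanine synthase, of a family of enzymes that includes those removing the cyanide released in ethylene synthesis. It had 321 and 258 CPM at NF 4 h, 229 and 237 CPM at NF 20 h and 64.9 CPM in the control, both NF 20 h libraries below both NF 4 h libraries. The CXE carboxylesterase Medtr3g012440, of a family of hydrolases of small esters, had 193 and 127 CPM at NF 4 h, 146 and 124 CPM at NF 20 h and 34.1 CPM in the control. The S-norcoclaurine synthase-like gene Medtr4g478140 gave 18.7 and 16.7 CPM (NF 4 h), 21.9 and 29.96 CPM (NF 20 h) and 4.94 CPM (control), with both NF 20 h libraries above both NF 4 h libraries. Medtr3g434790, a gene for a P-loop nucleoside triphosphate hydrolase on the legume list, averaged 28.8 ± 1.31 CPM at NF 4 h and 26.5 ± 3.48 CPM at NF 20 h (SD, n = 2 each) against 6.93 CPM in the control.

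The 3 transporter genes differed in level. Medtr8g022270 encodes an ABC transporter of the B family, which holds auxin transporters in Arabidopsis, and had 124 and 87.9 CPM at NF 4 h, 97.6 and 68.2 CPM at NF 20 h and 10.2 CPM in the control. The amino acid transporter Medtr2g101920 gave 5.54 and 2.91 CPM (NF 4 h), 6.51 and 3.49 CPM (NF 20 h) and 0.219 CPM (control), with replicate 2 at 0.525 and 0.536 times replicate 1 at 4 h and 20 h. The MtN21/EamA-like gene Medtr4g094342 had 5 counts in the control and stayed low in NF root hairs, 1.54 ± 0.0238 CPM at NF 4 h and 1.299 ± 0.01697 CPM at NF 20 h (SD, n = 2 each). The group of kinases and phosphatases also held 3 genes. MtMAPKKK15 (Medtr2g023890), at the top of a kinase cascade, had 11.4 and 9.46 CPM at NF 4 h, 11.6 and 12.5 CPM at NF 20 h and 2.61 CPM in the control. The phosphatase 2C genes Medtr1g075730 and Medtr4g076560, of a family that holds negative regulators of abscisic acid signaling, averaged 64.1 ± 4.197 CPM at NF 4 h and 53.02 ± 6.37 CPM at NF 20 h (SD, n = 2 each) and 9.45 ± 2.72 CPM at NF 4 h and 12.1 ± 1.04 CPM at NF 20 h (SD, n = 2 each), with 11.5 and 1.78 CPM in the control. The PAR1 protein gene Medtr7g066110 fell in no group and was at 13.5 and 15.2 times the control at NF 4 h and NF 20 h.

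A further 12 genes had no informative annotation, and their levels ranged widely. Medtr4g097220, with a DUF4228 domain, was the gene with the highest CPM of the set at both times. It had 384 and 335 CPM at NF 4 h, 339.6 and 377 CPM at NF 20 h and 71.2 CPM in the control. Medtr4g023950, with a DUF1442 domain, was close to the upper limit, and its replicates matched within each treatment, at 65.7 and 65.1 CPM (NF 4 h), 97.4 and 96.95 CPM (NF 20 h) and 12.2 CPM (control). The gene Medtr4g088510, annotated as a hypothetical protein, had 5 counts in the control. It reached 50.4 and 26.96 CPM at NF 4 h and 36.1 and 30.8 CPM at NF 20 h, or 353 and 305 times the control. Per transcript length and averaged over both times, the 5 most abundant genes of the set were Medtr1g100667, Medtr4g097220, Medtr7g078070, Medtr8g074530 and Medtr3g012440. Medtr1g100667 stood at 219 FPKM at NF 4 h, 240.4 FPKM at NF 20 h and 54.8 FPKM in the control. Medtr4g097220 stood at 224 FPKM at NF 4 h, 223 FPKM at NF 20 h and 44.3 FPKM in the control, where FPKM is CPM divided by the transcript length in kilobases. Medtr3g012440 had 89.8 FPKM at NF 4 h, the fifth highest there, but at NF 20 h its 75.9 FPKM was below the 90.2 FPKM of Medtr4g023950.

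The limits of the set passed through a continuum of values. At the limit of 3 times the control, the genes just inside were Medtr8g074530, MtPUB1 and MtVAPYRIN, whose lowest NF libraries were at 3.09, 3.13 and 3.21 times the control. Just outside, at 2.9999, 2.94 and 2.93 times, were Medtr3g079630 (a serine carboxypeptidase-like gene), Medtr7g092620 (cytochrome P450 family) and Medtr4g028060 (a P-type cyclin gene). At the limit of 1 CPM, Medtr5g009150, Medtr2g435450 and Medtr5g026160 were inside with 1.01, 1.097 and 1.22 CPM in their lowest NF library. Medtr6g061690 (a 65-kDa microtubule-associated-like protein), Medtr6g033760 (a heat shock cognate protein) and Medtr3g467150 were outside with 0.995, 0.946 and 0.882 CPM. For the ratio of NF 20 h to NF 4 h, Medtr1g022330, Medtr1g021638 and Medtr3g106430 were inside the lower limit at 0.693, 0.735 and 0.741. Medtr4g116273, Medtr5g012590 (a glucuronosyltransferase gene) and Medtr2g021255 (a glutamine synthetase domain gene) were outside it at 0.667, 0.656 and 0.637. At the upper limit, Medtr6g092540, Medtr4g023950 and Medtr2g435450 were inside at 1.49, 1.49 and 1.47, and Medtr5g027350 (an armadillo repeat gene), Medtr1g034360 (a fatty acyl CoA ligase gene) and Medtr1g105930 (an inositol phosphate kinase gene) were outside at 1.51, 1.56 and 1.57.

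Of the 153 genes that met the conditions on the level and the control, the 78 lay within the window of the ratio, 54 were above it and 21 below it. The median ratio of NF 20 h to NF 4 h was 1.02 in the 78 genes, 2.27 in the 54 and 0.546 in the 21. Within the set, 37 genes had the lower mean at 20 h and 41 the higher one. Both NF 20 h libraries lay above both NF 4 h libraries in 12 of the 78 genes and below them in 11, and the libraries of the 2 times overlapped in the other 55. Among all 16016 genes at 1 CPM or more in the NF libraries, 22.2% were above without overlap and 17.2% below, but the window of the rule bears on the count in the set. Taken by replicate number, the ratio of NF 20 h to NF 4 h lay within 0.67 to 1.5 in both replicates for 64 of the 78 genes, in replicate 1 for 73 and in replicate 2 for 67.

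**Figure D4:**
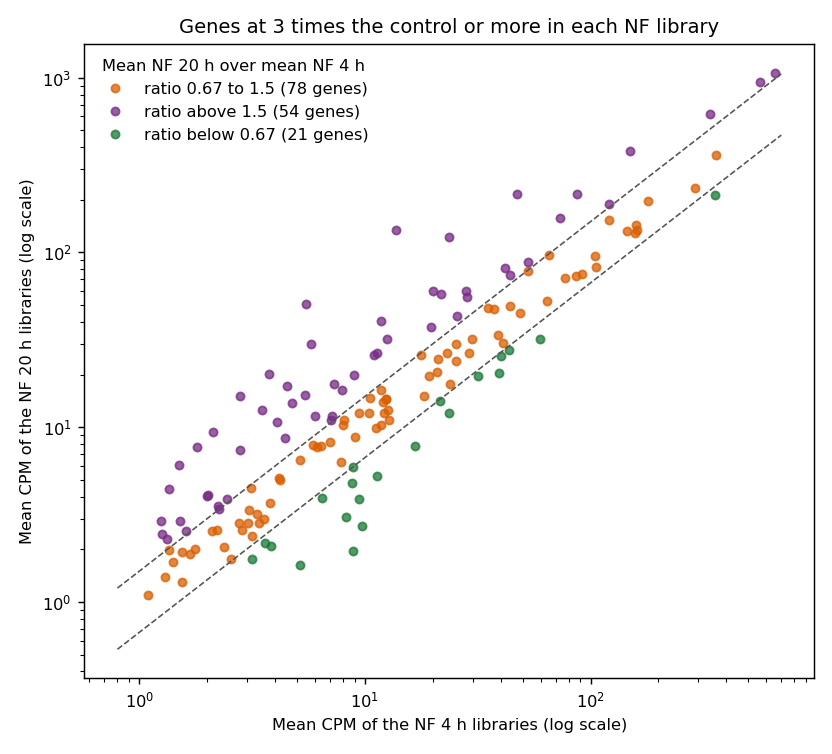
Mean CPM at NF 20 h against mean CPM at NF 4 h, both on log axes, for the 153 genes at 3 times the control or more in each NF library, colored by the ratio of the means, with dashed lines at 0.67 and 1.5. The 78 genes fill the band between the lines over its whole range, with 54 genes above and 21 below.

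The replicates of NF 4 h, whose difference the rule did not use directly, were not alike for these genes. At 4 h replicate 1 was higher than replicate 2 in 67 of the 78 genes (85.9%), and the median of replicate 2 divided by replicate 1 was 0.761. In the other 15938 genes at 1 CPM or more in the NF libraries, replicate 1 was higher in 45.4% and the median was 1.02. At 20 h replicate 1 was higher in 48 of the 78 genes (61.5%), with a median of 0.916, against 54.1% and 0.978 in the other genes. With TMM-scaled totals, replicate 1 was higher at 4 h in 74 of the 78 genes against 57.4% of the others, and at 20 h in 47 against 52.8%. At 4 h it was also found in 49 of the 54 genes above the window and in 21 of the 21 below it. The summed root hair markers went the other way, with 1502 CPM in replicate 1 and 1820 CPM in replicate 2 of NF 4 h, and their part in the difference was not tested.

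At 4 h, 58 of the 78 genes had replicates within 1.5-fold of each other, and 3 differed by more than 2-fold, MtNF-YA1, Medtr1g090807 and Medtr2g102570. At 20 h, 71 stayed within 1.5-fold and none passed 2-fold, and the widest differences were those of Medtr2g101920, Medtr6g038730 and Medtr2g102570, with replicate 1 the higher one. In Medtr7g018660, replicate 2 was the higher one at 20 h, at 1.64 times replicate 1. With 2 libraries a group, such a gene can lie in the set on the strength of 1 library. Without NF 4 h replicate 1 the rule still gave 78 genes, but 15 of the present ones were lost and 15 others took their place. Without NF 4 h replicate 2 it gave 100 genes and lost 9 of the present ones.

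**Figure D5:**
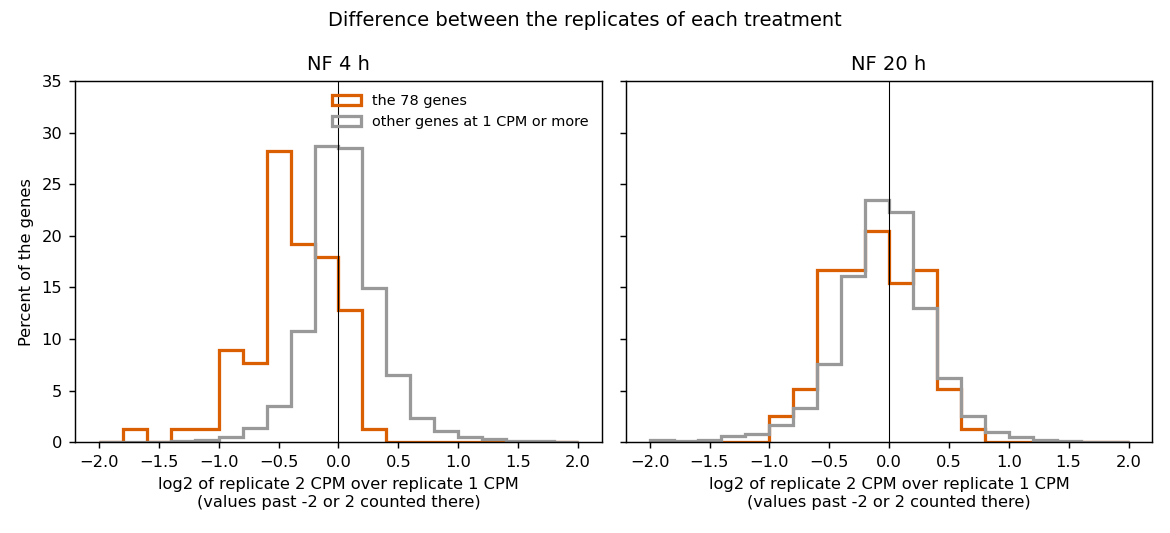
Distribution of the log2 of replicate 2 over replicate 1 (CPM) at NF 4 h and at NF 20 h, as the percent of the 78 genes and of the 15938 other genes at 1 CPM or more in the NF libraries. At NF 4 h the 78 genes lie left of the others, with 85.9% of them below 0, and at NF 20 h the curves largely overlap.

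The 78 genes were spread over the genome, with between 6 (chromosome 6) and 13 (chromosome 4) of them on each of the 8 chromosomes. Their transcripts had a median length of 1594 bases, against 1699 bases in all genes at 1 CPM or more in the NF libraries, and a median of 91.3% of their reads had been counted as pairs, against 91.6%. The share was lowest in Medtr1g022330 (52.3%), a gene of 390 bases for a hypothetical protein.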

How the data were processed

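RNA of isolated root hairs had been sequenced in read pairs by the study. The authors trimmed the reads, aligned them with Bowtie2 2.0 (per the labels) to the Mt4.0v1 transcripts in local mode, and deposited, for each of 50897 transcripts, its length and the raw counts of pairs whose mates both fell on 1 gene without ambiguity. A deposited column of reads counted singly served only for an alternative.

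CPM was the count divided by the library total, and FPKM was CPM per kilobase of transcript. The genes and lists were chosen with earlier results of these data known, and 2 annotation words of the functional groups were reassigned after the values were seen. Annotations, names and lists are those of the study's supplementary tables. The RefSeq gene table matched 0 identifiers, so no sequence is shown. Genes named are those with a name in the study, the 4 highest of each functional group, the 5 with the largest ratio, those nearest each limit, neighbors within 3 genes, the 3 with the widest replicate difference at each time and the 5 with the highest mean FPKM, 58 of the 78. Medtr4g058570 and Medtr8g094980 were named outside these rules.

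Calls used edgeR 4.0.16 (R 4.3.3), library-size normalization, filterByExpr, 1 coefficient per treatment, the quasi-likelihood test and Benjamini-Hochberg adjustment at 0.05, with 2 residual degrees of freedom from the NF pairs. DESeq2 1.42.0, the edgeR exact test, TMM factors and other limits were alternatives. Tested on simulated data (200 of 22091 genes given a log2 change of 2), the fit recovered 66% of them at NF 4 h and 65% at NF 20 h where counts were drawn with gene-wise dispersions, and 13.2% and 14.5% of its calls were false, above the nominal 5%. With trended dispersions, tried after those false calls were seen, it recovered 74.5% and 73%, with 3.25% and 4.58% false. Exact intervals are at 95%. Calls were counted for the ortholog and legume lists. They were also counted for annotated families in these lists and in the study's ion transport and redox lists.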

Additional observations from a re-analysis of the deposited data

How the results depend on the processing

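The number of genes in the set stayed within 1.5 times of 78 with TMM-scaled totals (80) and DESeq2 size factors (80), which kept all 78 genes, and with 4 times the control (52), minima of 0.5 CPM (89) and 2 CPM (65), a wider window of 0.5 to 2 (113) and a narrower one from 0.8 to its inverse (57), and none of the listed genes left out (87). At 2 times the control it was 138, and with no minimum CPM but at least 3 counts in each NF library it was 142. Leaving out 1 NF library gave 78 to 100 genes. Of the alternatives chosen after seeing the data, reads counted singly gave 84 genes, 76 of them shared, and the window applied in each replicate number gave 64. The ratio of NF 20 h to NF 4 h of the 58 named genes stayed within the window for all 58 with TMM-scaled totals, DESeq2 size factors and reads counted singly, and for 45 to 56 of them with 1 library left out.

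The counts of called genes over the whole table depended strongly on the fit, and the cause was not tested. At NF 4 h the 151 calls became 440 with no filter, 576 with the DESeq2 Wald test, 863 with the edgeR exact test and 363 with only the libraries of the groups compared. At NF 20 h the 325 calls became 717, 909, 1322 and 618 under the same alternatives. TMM factors gave 164 and 366 calls and DESeq2 size factors 171 and 398. Leaving out 1 NF library gave 210 to 366 calls at NF 4 h and 350 to 639 at NF 20 h. With the replicate number as a block the fit called 1650 of the 22091 genes at NF 4 h and 2706 at NF 20 h, among them 3 and 6 of the 48 NB-LRR genes, 1 and 4 of the 16 LRR receptor kinases, 2 and 4 of the 16 UDP-glycosyltransferases and 1 and 3 of the 7 phosphatases 2C. The labels give only a replicate number, and whether libraries of the same number came from the same repeat of the experiment is not stated. The control library used is also a replicate 2. Across 22091 genes, not independent of each other, the deviation of replicate 2 from replicate 1 at NF 4 h had an r of 0.505 with that at NF 20 h. The single control library sets the depth of what can be read from the 8 genes with 3 counts or fewer in it.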
